A study of Arabidopsis thaliana with 6 samples.

Results

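QQS (Qua-Quine Starch, AT3G30720) is an orphan gene of Arabidopsis thaliana, and its transcript was read by a single probe set among the 22746 non-control probe sets of the ATH1 array. It is 1 of 13785 genes that could be named here. The gene was selected on its measured eif3k minus wild-type difference in these same arrays. The difference between the genotypes is therefore given as a description without a test. Transcript levels came from 6 arrays, 3 of eif3k and 3 of wild-type, both in the Columbia ecotype. The eif3k plants carried the T-DNA insertion GK-274H04-015098 (vector pAC161) in intron 6 of eIF3k, which encodes a subunit of the initiation factor complex that brings ribosomes to mRNA. In the study's methods the allele makes a 3′ shortened mRNA, and the plants look normal. This insertion was the only eif3k allele on these arrays, so an effect of eIF3k and any other difference between this line and wild-type Columbia cannot be told apart. RNA came from the aerial part of 11-day-old seedlings raised on plates with 1% sucrose at 22 °C and collected 4 h after the lights came on. The labels give days of 16 h of light, whereas the study's methods give continuous light for eif3k. In whole shoots, a change in the number of cells that hold a transcript and a change in the amount per cell cannot be told apart.

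Orphan genes have no recognisable relatives in other species, and QQS is known only from Arabidopsis thaliana, where it encodes a small protein. It was first noted as a transcript raised in leaves of a starch synthase mutant. Plants with reduced QQS hold more leaf starch, plants with more QQS hold less starch and more protein, and the protein binds NF-YC4, a subunit of the NF-Y transcription factor. The QQS gene lies among sequences derived from transposable elements, and its transcript level is known to differ between accessions and in mutants that lose DNA methylation.

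Values are log2 signals after the authors' GCRMA processing, in which the lowest value is 2.25. Over the 6 arrays 5726 probe sets varied by 0.01 or less, of which 5189 rested at this lowest value and 537 at higher values of their own, up to 6.08. In this RNA, the 2 matched leaf markers of 8 listed, RCA and LHCB4.1, had signals between 13.90 and 15.06 on all arrays. Of the root markers, 2 of 7 were matched: the root hair expansin gene EXPA7 stayed at 2.26 or below, while the root and hypocotyl gene PYK10 reached 11.61. The arrays were alike in median signal (4.02 to 4.12) and in the share of probe sets at the lowest value (25.5% to 26.8%). Replicate 3 of both genotypes was run on a later array date than replicates 1 and 2. A control probe set for the large cytosolic rRNA stood at 8.13 on the eif3k replicate 3 array, whereas the remaining arrays gave 12.04 to 12.87.

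The targeted gene was read first. The probe set of eIF3k had signals of 6.81, 6.62 and 7.52 on the eif3k arrays and 8.82, 9.18 and 8.89 on the wild-type arrays. The genotypes did not overlap, and eif3k minus wild-type was -1.98 on the log2 scale (SE 0.30). With limma this did not pass over all probe sets (adjusted p = 0.864). As the targeted gene itself did not pass, a lack of calls between the genotypes below does not show that a gene was unchanged.

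QQS had signals of 7.77, 7.81 and 8.46 in eif3k replicates 1, 2 and 3. In wild-type replicates 1, 2 and 3 its signals were 4.41, 3.60 and 4.58. Every eif3k array thus lay above every wild-type array, and the lowest eif3k signal exceeded the highest wild-type signal by 3.19. The mean was 8.01 ± 0.39 in eif3k and 4.20 ± 0.52 in wild-type (SD, n = 3 each). This is a log2 difference of 3.82 (SE 0.38), or 14.1-fold. Over the 9 possible combinations of an eif3k and a wild-type array, the log2 difference ran from 3.19 to 4.86, or from 9.13-fold to 29.0-fold. The wild-type signals lay 1.35 to 2.33 above the lowest value of the table and differed among themselves by up to 0.98. The value at which the QQS probe set would rest without its transcript is not known, and 22 of the 5726 resting probe sets lay above the lowest wild-type signal of QQS. GCRMA's background subtraction weighs more on dim signals, and its part in the fold was not tested.

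**Figure D1:**
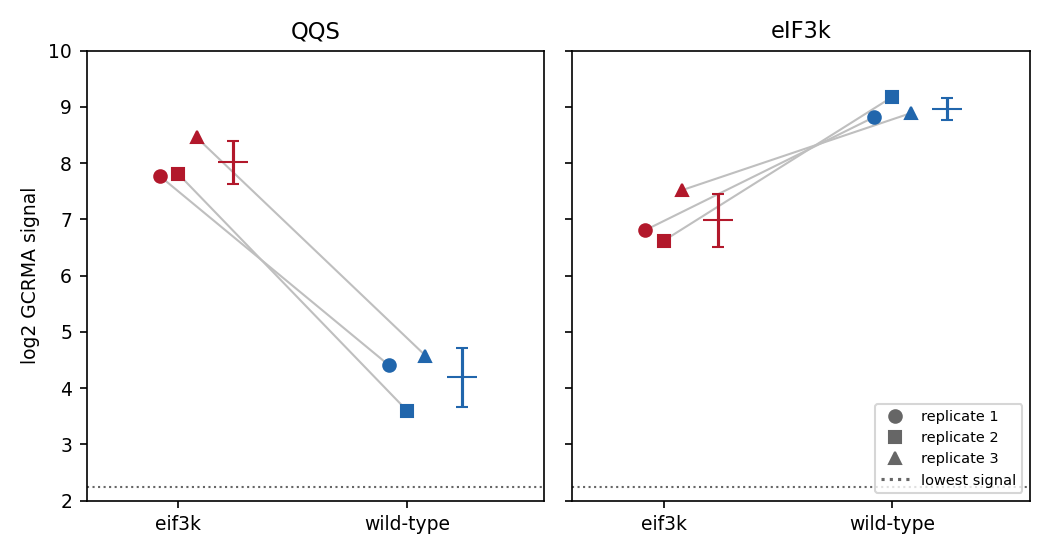
Log2 GCRMA signals of QQS and of eIF3k on each array, with the genotypes on the x axis, grey lines joining same-numbered arrays, and bars giving the mean and SD of 3 arrays. The QQS signals sit between 7.77 and 8.46 in eif3k, all above the wild-type signals of 3.60 to 4.58, while eIF3k is lower on all 3 eif3k arrays.

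The next question was how this difference compared with those of all other probe sets. In pair 1, that is eif3k replicate 1 and wild-type replicate 1, which share a number and an array date, the QQS difference was 3.36 and ranked first of 22746. The second largest increase in that pair was 2.76, from a probe set without a single named gene. The next named gene was IMS2, a gene of the isopropylmalate synthase family also known as MAM3 for its part in aliphatic glucosinolate synthesis, at 2.16.

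In pair 2 the QQS difference was 4.21 and ranked 4th. Above it stood the seed storage protein genes CRA1 at 4.60 and CRU3 at 4.59, and AT4G12490, a neighbour and relative of the lipid-transfer genes AZI1 and EARLI1, at 4.54. EARLI1 followed at 4.15 and AZI1 at 3.48. The 2 seed genes had differences of only 0.24 and 0.22 in pair 1, and of -1.50 and -0.41 in pair 3. CRA1 had signals of 2.86, 7.58 and 7.43 in eif3k and 2.62, 2.98 and 8.93 in wild-type. CRA1 was thus dim on the array of eif3k replicate 1, where QQS was high, and bright on that of wild-type replicate 3, where QQS was low. On the remaining arrays CRA1 was bright in eif3k and dim in wild-type, as QQS was high and low. A shared cause was not tested.

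In pair 3 the QQS difference was 3.88. It ranked 13th among increases and 18th by absolute size, as 5 probe sets were lower in eif3k by more than this. The differences of all probe sets were also wider in this pair, with an SD of 0.46, against 0.30 in pair 1 and 0.29 in pair 2. Of the 12 probe sets above QQS, 7 had a single named gene. These included AT5G20790 at 6.09, MGD2, a galactolipid synthase gene of phosphate-starved plants, at 5.07, and PDF1.2b, a defensin gene of the jasmonate response, at 4.29. PCC1, a pathogen-responsive gene, had 4.25 and AZI1 had 4.27. Among these 12, the differences in pair 1 ran from -1.15 to 1.25, and none of the 12 was above QQS in pair 2.

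**Figure D2:**
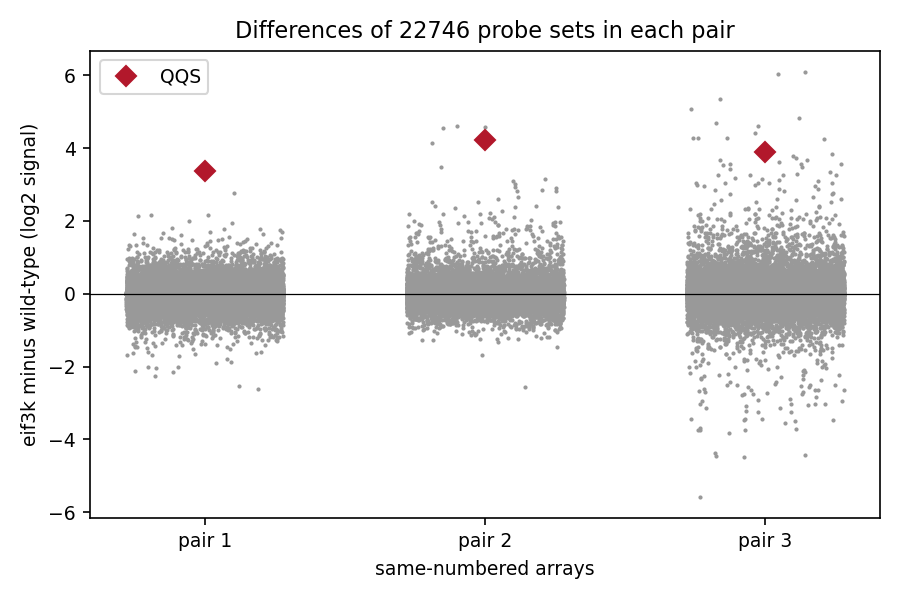
Differences of all 22746 probe sets between same-numbered arrays (y axis, eif3k minus wild-type in log2 signal; x axis, pair). The diamonds mark QQS at 3.36, 4.21 and 3.88, and grey points mark the other probe sets, with 0, 3 and 12 of them above QQS in pairs 1, 2 and 3.

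By the difference of group means, QQS ranked first in both signed and absolute size. The next 5 probe sets by absolute size were AT4G12490 at 3.09, AZI1 at 3.00, EARLI1 at 2.98, PCC1 at 2.49 and AT3G16530, a lectin-like gene, at 2.35. All 5 were higher in eif3k, and they varied more within genotypes than QQS did, with pooled SDs from 0.89 for AZI1 to 1.98 for AT4G12490, against 0.46 for QQS. AT4G12490 had signals of 8.21, 10.15 and 6.64 in eif3k and 7.22, 5.61 and 2.91 in wild-type, so its genotypes overlapped. EARLI1 also overlapped, with 9.25, 10.96 and 7.36 in eif3k and 7.49, 6.81 and 4.33 in wild-type. AZI1, which acts in systemic defence priming, had 8.97, 10.60 and 10.14 in eif3k, all above its wild-type signals of 7.72, 7.12 and 5.87.

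Over all probe sets, 2.71% had every eif3k array above every wild-type array and 2.31% had every eif3k array below. The QQS gap of 3.19 between the groups was the widest in either direction. Among increases AZI1 followed with a gap of 1.25 and IMS2 with 1.12. Among decreases the widest gaps were 1.39 for AGL87 and 1.30 for eIF3k. At least a 2-fold increase in every pair was seen for 13 probe sets (0.0572%) and a 2-fold decrease for 3 (0.0132%), eIF3k among them. Of the 13, QQS had the highest minimum over the pairs, at 3.36, and EARLI1 followed at 1.76. These counts use the contrast for which QQS was chosen and are descriptive.

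The first place by group means rested in part on which arrays were averaged. Without eif3k replicate 3 the QQS difference was 3.59 and ranked 3rd, behind AT4G12490 at 3.93 and EARLI1 at 3.90. Without wild-type replicate 1 it was 3.92 and ranked 2nd, behind AT4G12490 at 4.07. In the other 4 cases QQS stayed first.

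The spread of QQS within genotypes was larger than that of most probe sets. Its SD was 0.39 in eif3k, where 84.6% of all probe sets had a smaller one, and 0.52 in wild-type, where 94.4% did. Both shares count probe sets that rested at the lowest value and hardly varied. The 500 probe sets nearest to QQS in mean signal over all arrays had means of 6.005 to 6.205. That level lies between the QQS means of the genotypes and matches neither. Of these 500, 87.4% had a smaller SD pooled within genotypes, and their median pooled SD was 0.25, against 0.46 for QQS. The difference between the genotypes was 8.29 times this pooled SD. Among the 500 nearest probe sets the largest absolute difference between the genotypes was 2.24, and 95% of them differed by 0.53 or less. When each difference was divided by its pooled SD plus the median SD of all probe sets, QQS ranked first. These comparisons use the difference for which QQS was chosen, so they are descriptive and do not test it.

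**Figure D3:**
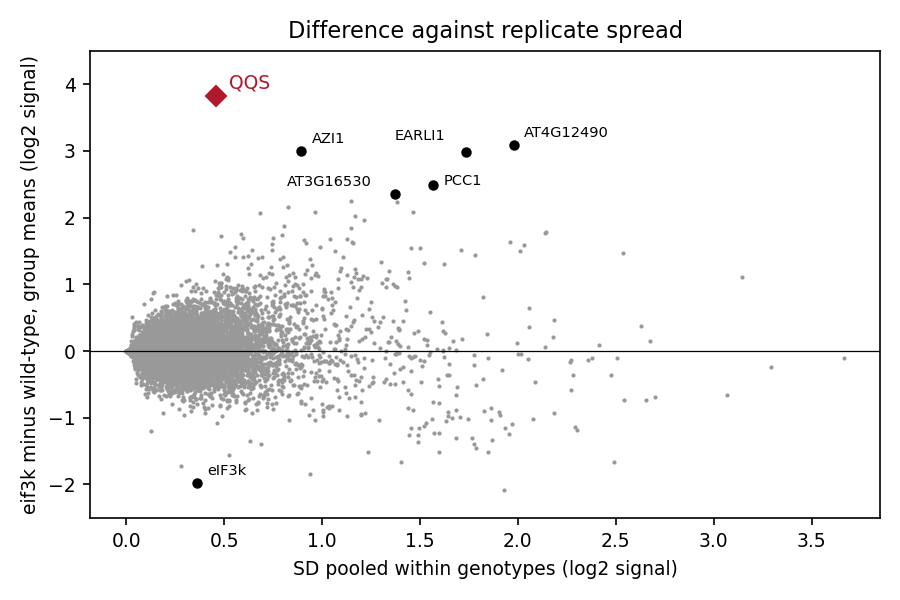
Difference of the group means (y axis, eif3k minus wild-type in log2 signal) against the SD pooled within genotypes (x axis, log2 signal) for all probe sets. QQS lies at 3.82 and 0.46, and the black points mark eIF3k and the 5 probe sets with the next largest absolute differences, whose pooled SDs run from 0.89 to 1.98.

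The array date was not used to choose QQS, so it could be tested. QQS was higher on the later date in both genotypes. In eif3k its signal was 8.46 on the later date, against a mean of 7.79 on the first date, and in wild-type it was 4.58 on the later date, against signals of 4.41 and 3.60 on the first. With genotype in the model, the later minus first difference was 0.62 (SE 0.29), or 1.54-fold. It did not pass with limma over all probe sets (adjusted p = 0.462, unadjusted p = 0.0948). Between the dates 76 of 22746 probe sets (0.334%) passed, and 14.6% had an unadjusted p under 0.05. The genotype difference of QQS was 3.88 on the later date, where replicate 3 was the only array of each genotype. Within the first date it was 3.79 as a difference of means. Without eif3k replicate 3, the array with the low rRNA control, the genotype difference of QQS was 3.59. QQS was chosen for its genotype difference, so these parts of it are descriptive. Whether the array date or the low rRNA control affected that difference was not tested.

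The chromosomal surroundings of QQS were then examined through the RefSeq gene order. QQS lies on chromosome 3 among genes annotated mostly as pseudogenes, which in this table include remnants of transposable elements. Of the 100 genes nearest to it in order, 50 on each side, 82 were annotated as pseudogenes and 13 as protein-coding. Over all 38094 genes of the table, 12.7% were pseudogenes. Within this stretch 18 probe sets with a single named gene could be read, and all 18 stayed under a signal of 3 on every array. QQS was therefore the only named probe set of this stretch with a signal above 3 on any array.

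The 5 nearest named probe sets on one side belonged to the pseudogenes AT3G30640, AT3G30650, AT3G30660, AT3G30670 and AT3G30710, which lie 32, 30, 28, 24 and 12 places before QQS. On the other side were AT3G30730, a protein-coding gene 4 places away, and AT3G30740, a transcribed pseudogene that the study lists among its ribosomal protein genes, 7 places away. They were followed by the pseudogenes AT3G30750, AT3G30800 and AT3G30810, at 19, 33 and 37 places. Of these 10 probe sets, 8 were at the lowest value of 2.25 on every array of both genotypes. AT3G30640 ranged from 2.25 to 2.30 in eif3k and from 2.25 to 2.56 in wild-type, and AT3G30740 reached 2.30 on the array of eif3k replicate 1 only. None of the 10 passed with limma, where 0 of 22746 probe sets passed over the whole table (0%) and 694 (3.05%) had an unadjusted p under 0.05. As eIF3k did not pass either, the lack of calls says little about the 10. None of the 10 had an unadjusted p under 0.05. At the lowest value a small difference cannot be seen, so these values say only that the 10 probe sets stayed at or near it in both genotypes.

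The nearest named probe set with a signal above 3 on all arrays was that of AT3G30460, 56 places before QQS. Its signals were 3.05, 3.02 and 3.04 in eif3k and 3.23, 3.27 and 3.02 in wild-type, which is close to the limit of 3. The nearest bright one on that side was AT3G30390, an amino acid transporter family gene, 81 places away, with 9.06, 9.49 and 9.60 in eif3k and 9.55, 9.16 and 9.17 in wild-type. On the other side the first was AT3G32930, 286 places away, with 9.06, 8.57 and 8.90 in eif3k and 8.73, 8.92 and 9.25 in wild-type. The genotypes overlapped for all 3 genes.

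Within 400 genes on each side of QQS, 182 named probe sets had differences from -0.53 to 0.59 with a median of 0.00. Of these, 30 had signals above 3 on all arrays, and 107 were at 2.25 on all arrays. With limma 0 of the 182 passed, as over the whole table (0%), and 1 had an unadjusted p under 0.05, against 3.05% of all probe sets. The 107 at 2.25 on all arrays could show no difference, so neither the median nor these counts speak for them.

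**Figure D4:**
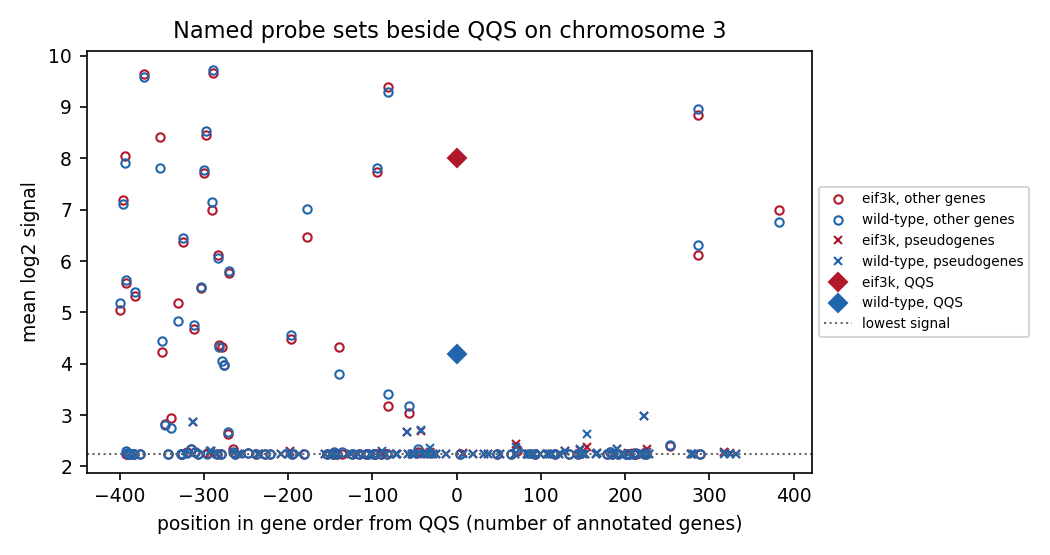
Mean log2 signal in eif3k (red) and wild-type (blue) of the 182 named probe sets within 400 genes on each side of QQS, by position in gene order; crosses are annotated pseudogenes, circles are other genes and diamonds are QQS. QQS stands at 8.01 in eif3k and 4.20 in wild-type, and the nearest points on either side lie at or close to the lowest value of 2.25.

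As QQS sits among pseudogenes, the other pseudogene probe sets of the array were read in the same way, a set chosen after the neighbours had been seen. Of 990 such probe sets, 952 (96.2%) stayed under a signal of 3 on every array, against 39.2% of those of other named genes. The median difference of the 990 was 0.00, as it was for the 12941 probe sets of other named genes. At least a 2-fold increase of the group means was seen for 1 of the 990, against 65 of the 12941. A 2-fold decrease was seen for 0 of the 990, against 36 of the 12941. The raised pseudogene probe set, of AT2G04460, had signals of 2.59, 2.59 and 6.11 in eif3k and 2.59, 2.59 and 2.55 in wild-type. Its difference thus came from eif3k replicate 3 alone. With limma 0 of the 990 passed, as over the whole table (0%), and 0 had an unadjusted p under 0.05, against 379 (2.93%) of the other named probe sets. In probe sets this dim a small difference can go unseen. The median and these counts therefore do not tell whether pseudogenes differ between the genotypes.

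Genes whose known roles touch on QQS were compared next. Of 35 listed genes of starch synthesis and breakdown, 6 had a probe set with a single named gene, and their differences ran from 0.08 to 0.33. APL4, a large subunit of ADP-glucose pyrophosphorylase, had 2.95, 3.30 and 2.62 in eif3k and 2.71, 2.52 and 2.68 in wild-type. PTST, which brings granule-bound starch synthase to the granule, had 5.31, 4.92 and 4.52 in eif3k and 4.40, 4.66 and 4.88 in wild-type. In both genes the genotypes overlapped. Among the genes of breakdown, DPE1, which rearranges maltotriose, had 7.09, 6.14 and 7.25 in eif3k and 6.30, 5.81 and 7.39 in wild-type. PWD, a glucan phosphorylating kinase, followed the array date, with 9.11 in eif3k and 9.20 in wild-type on the later date and 6.67 to 7.08 on the 4 arrays of the first.

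Of 19 listed NF-Y subunits only NF-YA2 was matched, with 4.91, 4.70 and 6.20 in eif3k and 4.37, 4.70 and 4.80 in wild-type, a log2 difference of 0.65. NF-YC4 was not analysed here. Of 15 nitrogen assimilation genes only the asparagine synthetase gene ASN1 was matched, with 6.05, 6.85 and 5.90 in eif3k and 6.75, 6.26 and 5.49 in wild-type. Neither gene separated the genotypes.

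Of 32 listed genes that write, read or remove DNA methylation, 3 were matched by 5 probe sets. ROS1, a DNA glycosylase that removes methylated cytosine, had 5.28, 4.93 and 5.09 in eif3k and 6.09, 5.81 and 5.15 in wild-type, a log2 difference of -0.58 (limma adjusted p = 1, unadjusted p = 0.102). Its genotypes overlapped through wild-type replicate 3. DME, a related glycosylase, had a difference of 0.25 for the brightest of its 3 probe sets, and CMT2, a methyltransferase of non-CG sites, had 4.90 on all 3 wild-type arrays and 4.85 to 5.30 in eif3k. BNS, which DNA methylation can silence, had 5.63, 5.42 and 5.30 in eif3k and 5.18, 5.38 and 6.06 in wild-type. MET1, DDM1, SDC and FWA were not analysed here.

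Over these 6 lists, 12 genes were matched by 14 probe sets. With limma 0 of the 14 passed, none had an unadjusted p under 0.05, and the largest absolute difference was 0.65, against 3.82 for QQS. In none of the 14 were all arrays of one genotype above those of the other, which 5.02% of all probe sets showed in either direction. With 12 of 104 listed genes matched, the lists describe these members and not their pathways.

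Likeness to QQS was measured by Pearson's r over the 6 arrays, among 2713 other probe sets whose mean signal exceeded the median and whose signals spanned at least 1. These arrays include the genotype contrast that chose QQS, so the values are descriptive. Among named genes the highest r was that of IMS2 at 0.96 (Spearman's rho 0.83), with 8.03, 7.19 and 7.81 in eif3k and 5.87, 5.66 and 6.07 in wild-type. BGLU44, a beta-glucosidase gene, had an r of 0.94 (rho 0.94), with 10.56, 10.29 and 10.72 in eif3k and 9.89, 9.53 and 10.03 in wild-type. AT1G59960, of the aldo-keto reductase family, had an r of 0.92 and the same order of arrays as QQS (rho 1). AT1G62500 and AT2G25510 each had an r of 0.91.

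The lowest r among named genes was -0.99 for AT3G55710, a glycosyltransferase family gene, with 4.51, 4.37 and 4.30 in eif3k and 5.70, 5.64 and 5.43 in wild-type. AGL87, a MADS-box gene, had -0.94, and eIF3k itself had -0.93. All 8 of these genes had arrays that did not overlap between genotypes, against 5.02% of all probe sets. They were picked for their likeness to QQS, whose own arrays are split by genotype, so nothing is read from this count. Their log2 differences, from -1.98 for eIF3k to 1.81 for IMS2, were smaller in size than that of QQS.

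**Figure D5:**
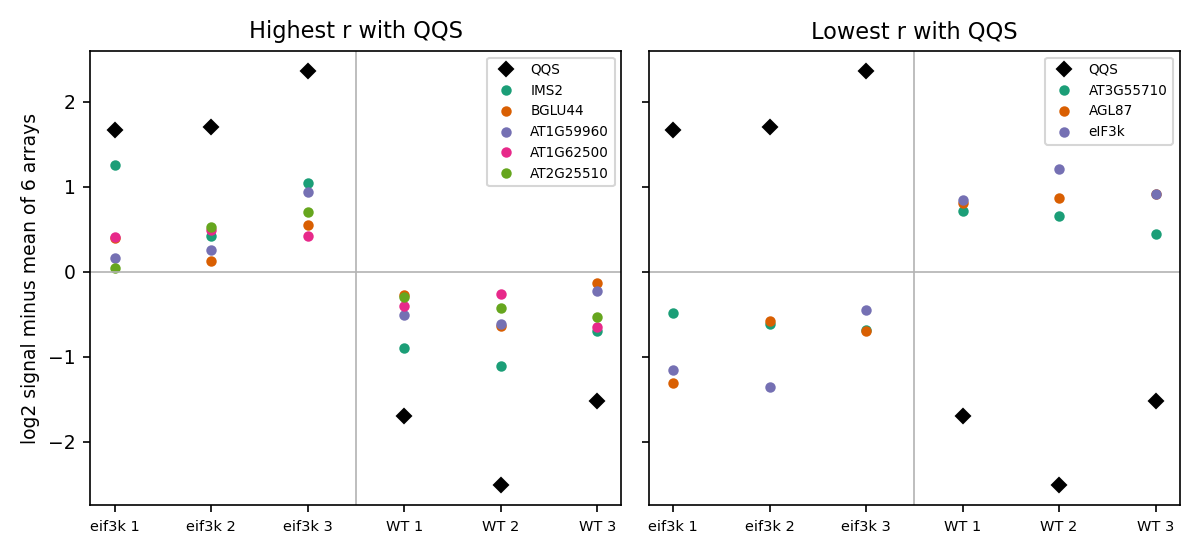
Log2 signal of each gene minus its mean over the 6 arrays (y axis) on each array (x axis), for QQS with the 5 named genes of highest r (left panel) and the 3 of lowest r (right panel). The QQS points span from -2.51 on the array of wild-type replicate 2 to 2.36 on that of eif3k replicate 3, a wider range than any of the 8 other genes shown.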

How the data were processed

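Deposited values were log2 signals that the authors computed with GCRMA, per the labels; no version is given in the sources used here. Base 2 was inferred, since GCRMA reports on that scale and the values span 2.25 to 15.55. GCRMA subtracts a background modelled from probe sequence and normalizes arrays together; many probe sets then rest at the lowest value, others at values of their own. For its own results the study used RMA instead. Of 22810 probe sets, 64 controls were left out. Probe sets were named through the platform annotation, and 545 only through loci that the study's supplement gives; 8185 are unnamed here. Gene types came from the RefSeq table (TAIR10.1), and gene order from its start positions. Distances are given in genes and not in bases.

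The labels gave groups and replicate numbers, and the design text calls the replicates biological; what each grew from is not given, so p-values measure the spread between these samples. Other genes and the array date were tested on all 6 arrays with limma 3.58.1 under R 4.3.3 (2-sided, Benjamini-Hochberg adjustment over all probe sets, adjusted p under 0.05 and at least 2-fold), without a block for genotype and with genotype as covariate for date. The number of arrays limits the precision. Same-numbered arrays were taken as pairs, since the labels give replicate 3 its own date and deviations from group means correlated at 0.25, 0.38 and 0.54 within pairs 1, 2 and 3. Replicates 1 and 2 of the first date correlated as well when crossed (0.31 for eif3k 1 with wild-type 2, 0.40 for eif3k 2 with wild-type 1), so the correlations follow the date and do not tell pairs 1 and 2 apart. Members and lists were chosen with earlier results of these data known. Named genes were eIF3k, the 5 named probe sets on each side of QQS, the 5 next largest differences, the ranks beside QQS in each pair, the 5 highest and 3 lowest in r, and the 2 members of smallest p in each list; CMT2, PYK10, RCA, LHCB4.1, EXPA7, AT2G04460, the genes above QQS in pair 3 and the nearest genes above 3 were added after their values were seen. Alternatives were blocks, other scaling, group medians, a dim filter, another prior, the first date alone and leaving out each array.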

Additional observations from a re-analysis of the deposited data

How the results depend on the processing

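The QQS difference of 3.82 kept its direction and moved by less than its pooled SD of 0.46 under all 11 alternatives. The lowest value was 3.4, from group medians. With the replicate number as a block it was 3.82, as a block cannot change the difference in this balanced design. When each array was left out it ranged from 3.52 to 4.01. The rank of QQS by group means ranged from 1 to 3 when each array was left out. It stayed at 1 with both other scalings, the first date alone and division by the SD. With the dim filter it was also 1, but that filter only removes other probe sets and cannot worsen a rank. These alternatives use the contrast that chose QQS and are descriptive. In pair 3 the rank was 8 with the dim filter, in which fewer probe sets were ranked. The SD of QQS within genotypes ranged from 0.32 to 0.51 when each array was left out. No probe set passed between the genotypes in any limma fit with both thresholds, with 1089 at an unadjusted p under 0.05 with the replicate block, and the block changed no other call; with an unadjusted p under 0.05 and at least 2-fold the count was 38. Without the fold criterion the smallest limma adjusted p was 0.017 without eif3k replicate 3 and 0.0379 without wild-type replicate 3. The date difference of QQS stayed above 0 and below the threshold in every fit, from 0.46 to 0.80 when each array was left out (limma adjusted p from 0.238 to 0.897). The count of probe sets that passed between dates was less stable: 129 without the covariate, 160 with median centring, 470 with the dim filter, 4 with a trended and robust prior, and 0 to 204 when each array was left out, and the cause was not tested. Some list members turned in sign. BNS was 0.25 in the first date and ranged from -0.27 to 0.17 when each array was left out, ASN1 was -0.055 and ranged from -0.24 to 0.39, DPE1 ranged from -0.018 to 0.77 and PWD from -0.57 to 0.97.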
